A study of Mus musculus with 2 samples.

Results

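The ribosomal protein genes of the cytosolic and of the mitochondrial ribosome were read from a list of C-to-U sites in nuclear RNA of mouse cortex. Members were all listed genes whose symbols start with Rpl, Rplp or Rps and a number, or with Mrpl or Mrps and a number, together with Rpsa, without the S6 kinase genes (Rps6k). This gave 53 of the 6929 listed genes and 72 of the 17755 listed sites. The cytosolic family had 35 genes with 46 sites, and the mitochondrial family had 18 genes with 26 sites. The choice rested on names only and used no editing level.

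The study holds 1 group of 2 libraries, made from nuclei of the cortex that were stained for NeuN, a nuclear protein of neurons, and sorted by flow cytometry. The mice had the genotype APOBEC1-YTH: a deaminase, APOBEC1, is joined to a YTH domain, which binds N6-methyladenosine (m6A) in RNA. The joined protein deaminates cytidines close to m6A, and the resulting uridines are read as C-to-T changes. All mice were 10 weeks old when tamoxifen began (20 mg/kg at 24-hour intervals for 5 days), and the cortex was collected 7 days after dosing ended. The labels do not name the promoter of the transgene, and they do not say whether a library came from 1 animal or from several. The authors deposited 1 list for both libraries, with 1 editing level per site and no read depth, so no error between libraries and no counting interval can be given. Genes and sites of 1 list are not replicates of a condition, and the differences between groups of genes below are therefore descriptions without a test. Controls without the editor were not analysed here.

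Cytosolic ribosomes translate messages of nuclear genes and carry their proteins on a large (Rpl, Rplp) and a small (Rps, Rpsa) subunit. Mitochondrial ribosomes translate the few messages of the mitochondrial genome, which encode membrane subunits of the respiratory chain, and their own proteins (Mrpl, Mrps) are made in the cytosol from nuclear genes. Cytosolic ribosomal protein genes are short and strongly transcribed in most cells, and many of their messages start with a pyrimidine tract (5′ TOP) through which translation responds to mTOR. Methylation of adenosine by the METTL3 complex occurs during transcription, so m6A can be found in nuclear RNA.

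As a check of the label, 7 of 20 neuronal markers and 22 of 27 markers of glia and vessels had a listed site. These are 35.0% and 81.5%, against 28.2% of all protein-coding genes, so the neuronal share was the nearer to the share of all genes. Rbfox3, the gene of NeuN, had 0 sites, and the astrocyte gene Aqp4 had 45, the most of any marker. These 2 are extremes of their lists. The astrocyte genes Gfap, Aldoc and Apoe also had 0 sites, while the neuronal genes Map2 and Syt1 had 5 and 4. The neuronal markers held 19 sites and those of glia and vessels 259. By share and by sites, markers of glia and vessels were thus listed more than those of neurons, so this check did not bear out the label. By level the order was the other way, with a median gene mean of 7.89% for neuronal markers and 2.47% for those of glia and vessels. Expression of the markers is not in the list, so these counts do not measure which cells were sorted. The part of other cells in the ribosomal protein sites was not tested.

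Cytosolic ribosomal protein genes had a listed site more often than mitochondrial ones. Of the 89 protein-coding genes of the RefSeq table whose symbols fit the cytosolic pattern, 35 (39.3%) had at least 1 site, and of the 78 that fit the mitochondrial pattern 18 (23.1%) had one. Family and subunit were read from the symbol alone. The 89 thus include Rps19bp1, Rps23rg1 and paralogs such as Rpl3l and Rps27l, all without a site. Against the 28.2% of all protein-coding genes, the cytosolic share was higher and the mitochondrial share lower. Both families are shorter than most listed genes. The median span was 3137 bases for cytosolic and 7469 bases for mitochondrial genes with a site, against 34208 bases for all protein-coding genes with one. Among protein-coding genes with a span of at most 10 kb the share with a site was 12.8%, and there the cytosolic share was 39.1% (34 of 87) and the mitochondrial share 23.6% (13 of 55). Both were thus above the share of short genes as a whole. Expression is not given in the list, and its part in these shares was not tested.

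In both families the large subunit had the higher share. Large-subunit genes had a site in 24 of 54 cytosolic cases (44.4%) and in 13 of 49 mitochondrial cases (26.5%). Small-subunit genes had one in 11 of 35 cytosolic cases (31.4%) and in 5 of 29 mitochondrial cases (17.2%). Of the stalk protein genes, Rplp0, the base of the stalk that recruits elongation factors, had 1 site, while Rplp1 and Rplp2 had 0. The 4 X-linked cytosolic genes (Rpl10, Rpl36a, Rpl39 and Rps4x) also had 0 sites. Those 6 genes were singled out after their values were seen. The member sites lay on 15 chromosomes, and chromosome 9 held the most cytosolic ones (8 sites in 5 genes).

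**Figure D1:**
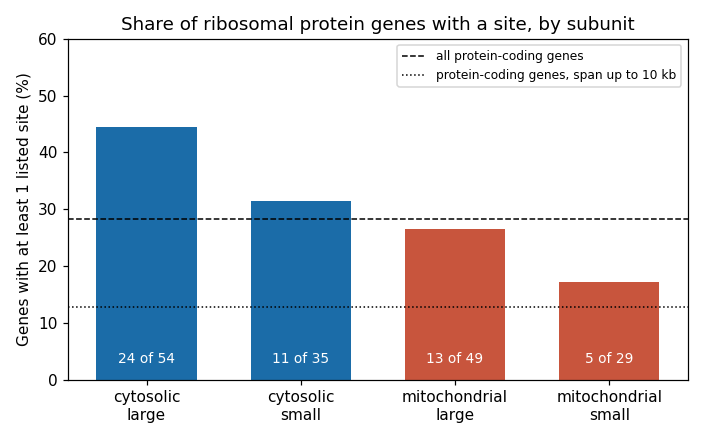
Percentage of RefSeq protein-coding genes with at least 1 listed site (y axis) for the large and small subunit of each family (bars, with the number of genes written in each). Subunits were read from the symbol alone. The dashed line is the share of all protein-coding genes (28.2%) and the dotted line that of genes with a span of at most 10 kb (12.8%); all 4 bars stand above the dotted line and both mitochondrial bars below the dashed one.

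Few sites were listed per gene. Of the genes with a site, 9 of 35 cytosolic (25.7%) and 6 of 18 mitochondrial genes (33.3%) had 2 or more, against 50.8% of all listed genes. Median spans were 3137 and 7469 bases in the 2 families and 34208 bases in all protein-coding genes with a site. The share among short genes alone is not given, so the part of span in this difference was not tested. The highest number was 4 sites, in Mrps5, a protein of the mitochondrial small subunit, and 937 genes of the whole list had more than that. Rpl12 and Rpl29 had 3 sites each, 12 members had 2 and 38 had 1.

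Listed editing levels were lower in cytosolic than in mitochondrial genes. Over sites, the median was 2.60% for the 46 cytosolic sites (quartiles 1.57% and 5.37%, range 1.05% to 21.3%) and 5.49% for the 26 mitochondrial sites (quartiles 2.7% and 10.7%, range 1.06% to 20.0%). The median of all 17755 sites, 3.64%, lay between them. Averaged per gene first, the cytosolic mean was 4.73% ± 5.0 (SD, n = 35 genes) with a median of 2.63%, and the mitochondrial mean was 7.55% ± 4.59 (SD, n = 18 genes) with a median of 6.93%. The gene medians differed by 4.30 percentage points, which is less than the SD across genes within either family. The families overlapped: 6 of 35 cytosolic gene means were above the mitochondrial median, and 2 of 18 mitochondrial ones were below the cytosolic median. Against the median of all listed gene means, 5.0%, 25 of 35 cytosolic and 5 of 18 mitochondrial genes were lower.

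Weak sites made up more of the cytosolic than of the mitochondrial family. Levels under 2% made up 32.6% of cytosolic sites (15 of 46) and 15.4% of mitochondrial sites (4 of 26), against 24.6% of all sites. Levels of 10% or more were reached by 6 cytosolic sites (13.0%) and 7 mitochondrial sites (26.9%), against 14.9% of all sites. With only sites of 5% or more kept, the order turned: the gene medians were 10.4% over 11 cytosolic and 8.70% over 13 mitochondrial genes. Read depth at the sites is not in the list, and its part in the difference was not tested. High levels were bunched at single values. Over all sites, the cumulative share rose from 96.8% at a level of 18.1% to 97.8% at 18.2%. It was 98.0% at 19.9% and 99.1% at 20%. Sites of Rps15a (18.2%), Rpl9 and Mrpl44 (both 20.0%) lay at such values. Similar rises held the levels 10.53% (Rpl10a), 11.11% (Mrpl17), 11.76% (Mrpl10), 13.33% (Rpl28, Mrpl15, Mrpl44 and Mrps27), 15.38% (Rpl35) and 16.67% (Mrps17). Of the member sites of 10% or more, only that of Rps25 (21.31%) lay apart from such a rise. Fractions of few reads fall on repeated values, so high levels can rest on few reads, which was not tested.

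**Figure D2:**
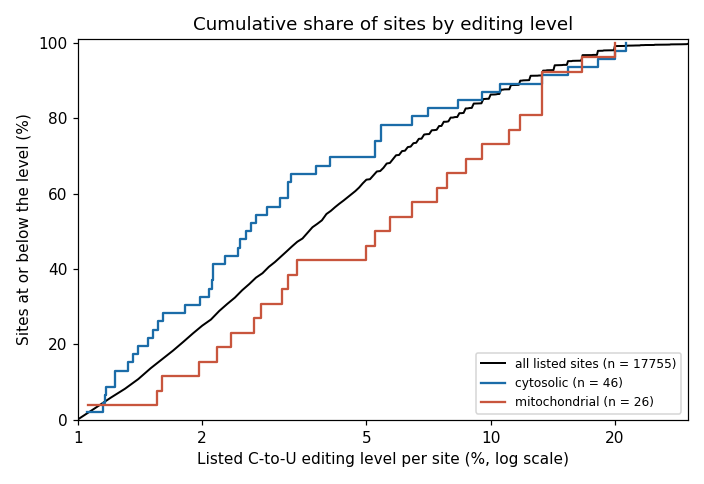
Cumulative percentage of sites (y axis) at or below a listed editing level (x axis, log scale, drawn to 30%) for 46 cytosolic sites, 26 mitochondrial sites and all 17755 sites. The cytosolic curve lies left of the curve of all sites over most of its course and the mitochondrial curve right of it, with medians of 2.60%, 5.49% and 3.64%; the curves come together above 13%.

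Among cytosolic small-subunit genes, levels spanned the full range of the family. The highest cytosolic level was the single site of Rps25, 21.3% (chromosome 9, position 44407724, plus strand, mm10). Rps25 is a small-subunit protein known for its role in translation from internal ribosome entry sites. Rps15a, another small-subunit protein, had 1 site at 18.2% (chromosome 7, 118108802), and Rpsa, the gene of the protein first described as the laminin receptor, had 1 at 5.41%. The remaining small-subunit sites were all at or below 3.28%. Rps6, the ribosomal substrate of the S6 kinases, had sites at 1.82% and 3.28%, and Rps24, a gene mutated in Diamond-Blackfan anaemia, had sites at 1.05% and 2.56%. The 1.05% site of Rps24 (chromosome 14, 24492029) was the lowest of the cytosolic family. Rps3a1 had a site at 2.87% and Rps9 at 2.44%. The lowest small-subunit gene means were those of Rps23 at 1.52%, Rps16 at 1.23% and Rps27 at 1.17%.

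The cytosolic large subunit held 24 genes with a median gene mean of 2.67%, close to the 2.55% of the 11 small-subunit genes. Rpl9 had the widest pair of the family, with sites at 5.26% and 20.0% (chromosome 5, 65388405 and 65390049) that lay 1644 bases apart. Rpl35, whose protein lies near the exit of the peptide tunnel, had sites at 5.43% and 15.4% (chromosome 2, 39004153 and 39005489). The stronger Rpl35 site lay 358 bases upstream of the RefSeq span. Rpl28 had 1 site at 13.3% and Rpl10a, the protein of the L1 stalk, 1 at 10.5%. No other large-subunit site reached 10%.

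Among the other large-subunit genes with several sites, Rpl12, at the base of the stalk, had sites at 2.11%, 2.47% and 7.04%. Rpl14 had sites at 2.27% and 9.52%, 147 bases apart, and Rpl15 at 5.26% and 8.33%, 139 bases apart. The highest level of a gene was 4.19 times its lowest in Rpl14 and 3.34 times in Rpl12. Rpl29 had sites at 1.36%, 1.61% and 3.23%. The sites of Rpl37, 8 bases apart, were the closest pair of all members and had nearly equal levels, 2.08% and 2.13%. Single sites of Rpl37a (6.45%), Rplp0 (4.08%), Rpl18 (3.77%) and Rpl35a (3.08%) followed. A further 11 large-subunit genes, with 1 site each, lay between 1.15% and 2.7%. The lowest of these was Rpl11, which binds Mdm2 when ribosome assembly is disturbed, at 1.15%, just below Rpl22 at 1.16%.

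**Figure D3:**
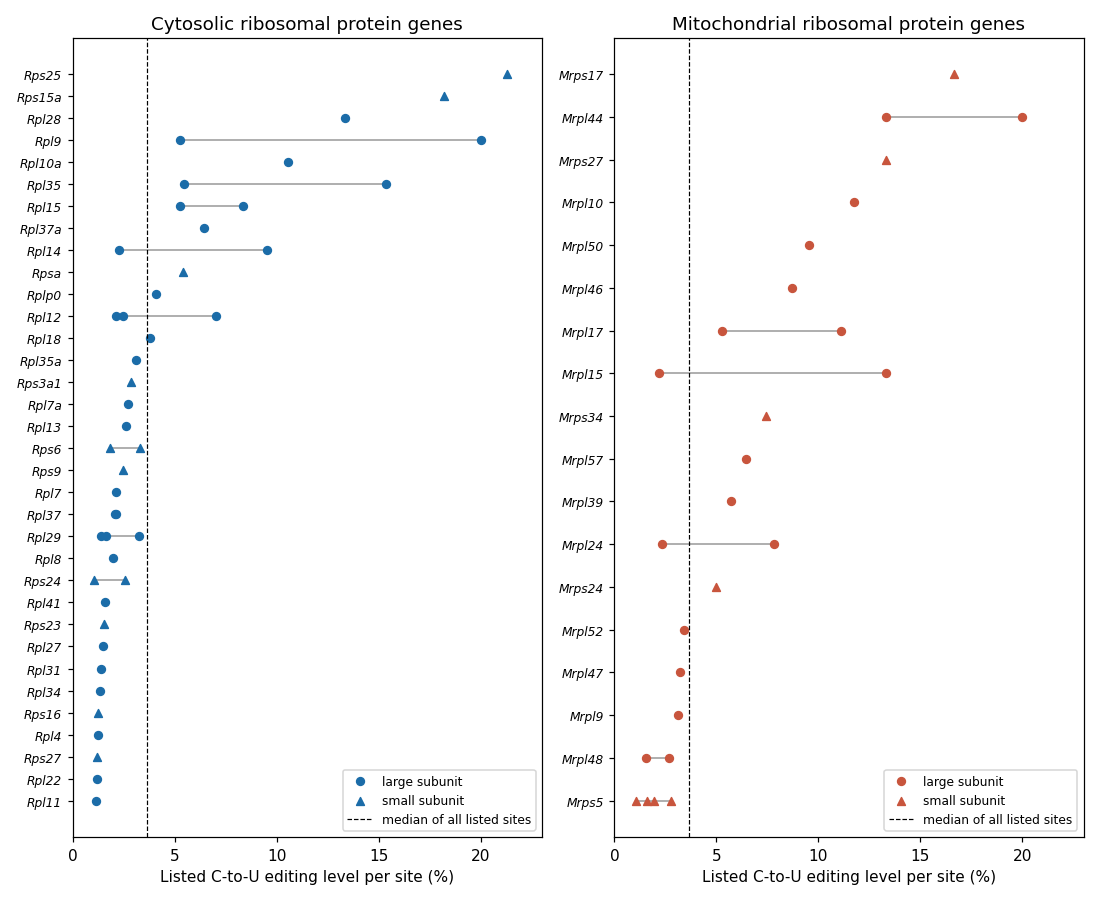
Listed editing level of each site (x axis, percent) for 34 of the 35 cytosolic (left) and the 18 mitochondrial genes (right), ordered by gene mean, with circles for large- and triangles for small-subunit genes; grey lines join sites of 1 gene and the dashed line is the median of all listed sites (3.64%). Rps25, at 21.3%, is highest among cytosolic genes, and 12 cytosolic genes but only 1 mitochondrial gene, Mrps5, have a mean under 2%.

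In the mitochondrial large subunit, Mrpl44 had the highest levels, 20.0% and 13.3% (chromosome 1, 79776295 and 79778128). Its protein contains an RNase III-like domain. Mrpl10 had 1 site at 11.8%, Mrpl50 at 9.52% and Mrpl46 at 8.70%. Mrpl15 had sites at 13.3% and 2.17% that lay 10887 bases apart, and Mrpl17 had sites at 11.1% and 5.26%. Both genes thus held 1 stronger and 1 weaker site. Mrpl24 had sites at 2.35% and 7.84%, and the stronger one (chromosome 3, 87923405) also lies in the span of Rrnad1. Mrpl57 had 1 site at 6.45%, Mrpl39 at 5.71%, Mrpl52 at 3.39% and Mrpl9 at 3.12%. The only site of Mrpl47, at 3.23% (chromosome 3, 32737140), lay 385 bases upstream of its RefSeq span and inside that of Ndufb5, so its gene is uncertain. The lowest large-subunit gene was Mrpl48, with 2.67% and 1.55%.

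The mitochondrial small subunit held 5 genes, with gene means from 1.85% to 16.7%. Mrps17 had 1 site at 16.7% (chromosome 5, 129720422), which lay 1710 bases downstream of the RefSeq span, so its gene is uncertain. Mrps27, a pentatricopeptide repeat protein, had 1 site at 13.3% (chromosome 13, 99414889), Mrps34 had 1 at 7.41% and Mrps24 had 1 at 5.0%. Mrps5 stood apart in number and level, with 4 sites at 1.06%, 1.60%, 1.96% and 2.78%. They were spread over 8107 bases of a span of 16561 bases, and the 1.06% site (chromosome 2, 127594447) was the lowest of the mitochondrial family. All but 1 of the mitochondrial sites under 2% were in this gene; the other was in Mrpl48.

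Within their genes, cytosolic sites were in the last 1 kb about as often as sites of short genes as a whole. Of the 45 cytosolic sites inside the RefSeq span, 16 (35.6%) were in the last 1 kb, against 16.1% of all sites inside a span. In genes with a span of at most 10 kb the share over all sites was 36.6%. Of the 24 mitochondrial sites inside the span, 5 (20.8%) were in the last 1 kb. The last 500 bases alone held 14 cytosolic sites (31.1%), against 7.52% of all sites and 19.8% of sites in spans of at most 10 kb, and 2 mitochondrial sites (8.33%). The cytosolic share was thus above that of short genes in this narrower stretch. Cytosolic spans were also shorter, with a median of 3137 bases against 5555 for listed genes of at most 10 kb. In the last 10% of the span the cytosolic share was 17.8%, against 17.9% in spans of at most 10 kb and 40.2% of all sites. The last 500 bases held the 3 sites of Rpl12, the 3 of Rpl29, both of Rpl14 and 1 of Rpl9. The single sites of Rpl37a, Rpl41, Rps23, Rpl34 and Rps27 also lay there. The gene table gives spans without exons, so whether a site was exonic, intronic or in a UTR was not determined.

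Sites also lay near the 5′ end. The first 500 bases of the span held 9 cytosolic sites (20.0%) and 6 mitochondrial sites (25.0%), against 5.73% of all sites and 13.6% of sites in spans of at most 10 kb. In spans of at most 10 kb the shares were 20.5% for cytosolic and 28.6% for mitochondrial sites. The first 10% of the span held 15.6% of cytosolic and 20.8% of mitochondrial sites. That compares with 9.31% of all sites and 10.4% of sites in spans of at most 10 kb. Cytosolic levels there were higher, with a median of 4.08% over 9 sites against 2.19% over the 16 sites in the last 1 kb. In the mitochondrial family the order was the other way round, with 4.20% over 6 sites against 7.84% over 5 sites. Over the whole list, too, levels in the first 500 bases were lower (median 3.28%) than in the last 1 kb (4.65%). The first 150 bases held 5 cytosolic sites (11.1%), against 1.81% of all sites and 4.60% of sites in spans of at most 10 kb. They were those of Rps25 (21.3%), Rpl28 (13.3%), Rpl10a (10.5%), Rpsa (5.41%) and Rps24 (2.56%). Over the whole list the median in that stretch was 4.08%, so 4 of the 5 lay above it. The 2 mitochondrial sites there (8.33%) were weak, at 2.17% in Mrpl15 and 1.55% in Mrpl48. Both genes have spans above 10 kb. As at the 3′ end, cytosolic spans were shorter than those of listed genes of at most 10 kb (median 3137 against 5555 bases). A stretch of 150 or 500 bases thus covers more of them.

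**Figure D4:**
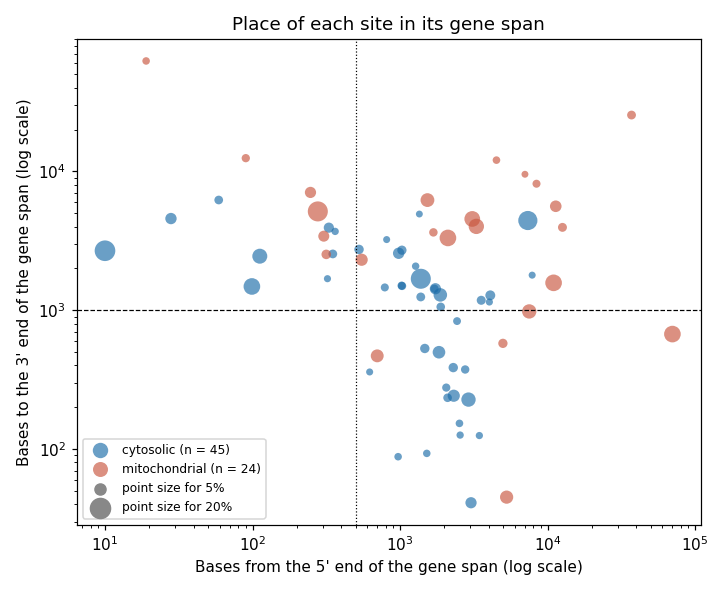
Distance of each site from the 5′ end (x axis, bases, log scale) and to the 3′ end (y axis, bases, log scale) of its RefSeq gene span for the 45 cytosolic and 24 mitochondrial sites inside a span, with point area growing with the editing level. Points left of the dotted line are in the first 500 bases (9 cytosolic, 6 mitochondrial) and points below the dashed line in the last 1 kb (16 cytosolic, 5 mitochondrial).

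Sequence was at hand only next to annotated starts, where RefSeq promoter windows (GRCm38.p6, the assembly of mm10) cover 250 bases before and 50 bases from each start. These windows held 5 member sites, shown because they include the strongest cytosolic site and let the base at the edited position be read. Each line gives the strand of the gene from 5′ to 3′, with the edited cytidine in capitals between 10 bases on either side.
Rps25: agcgaggctgCtgtggtctac
Rpl10a: agcgctctgcCttctttccgg
Rpsa: cgtcctttcgCgctacccggg
Rps24: tcctctccagCtccggcgccg
Mrpl48: gctctgctctCccaggaacac

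Counted from 1 at the annotated start, the edited base was base 11 in Rps25, 19 in Rpl10a, 29 in Rpsa and 20 in Mrpl48, and in Rps24 it lay 16 bases before the nearest start in the table. The stretches are at chr9:44407714-44407734 (plus strand), chr17:28328573-28328593 (plus), chr9:120127784-120127804 (plus), chr14:24490727-24490747 (plus) and chr7:100608272-100608292 (minus). The Mrpl48 site also lies in the span of Rab6a. All 145 listed sites that fell in such a window of their own gene read C on the strand of the site.

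m6A is placed mostly at an adenosine that is followed by a cytidine, in contexts that contain GAC or AAC. None of the 5 member sites was a C directly after an A: the base before was G in Rps25, Rpsa and Rps24, C in Rpl10a and T in Mrpl48. Among the 117 listed sites with complete flanks in these windows, 12 (10.3%) had an A before the edited C and 63 (53.8%) had a G. Over every C of all the windows, 18.2% followed an A and 28.1% a G. Most bases of a window lie before the annotated start. This background, and that of the stretches below, is therefore not restricted to transcribed sequence. On the site's strand, AC occurred somewhere in 3 of the 5 stretches of 21 bases (Rps25, Rpsa and Mrpl48), in 59 of the 117 around listed sites (50.4%) and in 65.5% of all such stretches centred on a C. GAC or AAC, each of which contains AC, occurred in 1 of the 5 (Mrpl48), in 41 of the 117 (35.0%) and in 38.0% of all. These letters describe windows at gene starts only, and they give no information on sites elsewhere in the genes.

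The pyrimidine start was looked for in the same windows, as a C at an annotated start followed by 4 bases that are each C or T. It was found in 15 of 69 cytosolic genes with a sequence (21.7%), in 0 of 69 mitochondrial genes and in 2.67% of 17492 protein-coding genes. Of the cytosolic genes with a sequence, 8 of 31 with a listed site and 7 of 38 without one held it. The 8 with a site are shown from 15 bases before the start, with the pyrimidine run that begins at the start in capitals.
Rpl14: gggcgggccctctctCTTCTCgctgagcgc
Rpl15: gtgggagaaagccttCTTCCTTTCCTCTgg
Rpl28: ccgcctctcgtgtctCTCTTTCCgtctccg
Rpl35: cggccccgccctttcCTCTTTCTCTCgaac
Rpl35a: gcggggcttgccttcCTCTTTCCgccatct
Rps15a: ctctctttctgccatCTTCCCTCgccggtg
Rps27: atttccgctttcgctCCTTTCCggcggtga
Rps6: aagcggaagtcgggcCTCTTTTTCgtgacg

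The runs were 6 to 13 bases long. Their genes covered almost the whole range of levels, from Rps27 at 1.17% to Rps15a at 18.2%. The result depends on the exact annotated start, and no match says only that these letters do not stand at that base.

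Sites with a neighbour within 100 bases were found in cytosolic but not in mitochondrial genes. Another site of the same gene lay within 100 bases of 6 of 46 cytosolic sites (13.0%) and of 0 of 26 mitochondrial sites, against 22.8% of all listed sites. Both shares were thus below that of all sites. The only site of a gene cannot have a neighbour, and 26 cytosolic and 12 mitochondrial sites were of this kind. Mitochondrial genes with a site also had longer spans (median 7469 against 3137 bases). The 6 sites belong to Rpl12, Rpl29 and Rpl37. In mitochondrial genes the smallest distance between neighbouring sites was 1386 bases, in Mrps5, and the widest was 37025 bases, in Mrpl48.

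Introns of cytosolic ribosomal protein genes are known hosts of small nucleolar RNAs (snoRNAs), which guide modification of ribosomal RNA. Of the 89 cytosolic genes, 30 contained a snoRNA annotated by RefSeq, and 9 of these 30 (30.0%) had a listed site, against 26 of 59 without one (44.1%). The hosts with a site included Rpl4, with 5 snoRNAs and a site at 1.23%, and Rpl7a, with 4 snoRNAs and a site at 2.7%. None of the 72 member sites fell inside a snoRNA.

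Processed pseudogenes are a known feature of cytosolic ribosomal protein genes, and reads of near-identical copies can be misplaced. The RefSeq table held 318 pseudogenes whose symbols fit the patterns, and 0 of them had a listed site. The share of all pseudogenes with a listed site is not given here, so this 0 cannot be read as a result about the family or about misplaced reads. How reads with several matches were handled is not given in the sources used here, so cytosolic levels are uncertain to that extent. Ribosomal proteins with other symbols added little. Fau of the cytosolic ribosome had 0 sites, as had Dap3, Chchd1 and Aurkaip1 of the mitochondrial one. Ptcd3 had 1 site at 9.52% and Gadd45gip1 had 2 with a mean of 10.8%, both above the mitochondrial median.

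Genes around the 2 ribosomes were read from 2 further lists. Of 30 ribosome biogenesis genes 14 had a site (46.7%, against 28.2% of all protein-coding genes), with a median gene mean of 3.75% (5.0% over all listed genes). The nucleolar chaperone gene Npm1 had the most (9 sites, mean 2.94%), followed by Ubtf, an activator of RNA polymerase I (6 sites, 2.03%), and nucleolin, Ncl (4 sites, 1.28%). The rRNA methyltransferase gene Nop2 had 1 site at 23.1%. Of 25 genes of mitochondrial translation 11 had a site (44.0%), with a median gene mean of 6.06%. The elongation factor gene Gfm1 had 3 sites (mean 4.52%), its paralog Gfm2 had 2 (5.61%) and the initiation factor gene Mtif2 had 1 (5.41%). Iars2, the isoleucyl-tRNA synthetase of mitochondria, had 3 sites with a mean of 24.0%. The 2 lists stood in the same order as the 2 families of ribosomal proteins, with the lower median on the cytosolic side, and this order was not tested.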

How the data were processed

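RNA of sorted cortical nuclei was sequenced from 2 libraries of 1 group. Per the labels' protocols, a stranded kit for total RNA was used, while another label field names polyA RNA. STAR 2.7.5 and the build mm10 are named in the submitters' processing notes, and per the series description sites were called with Bullseye. The authors deposited an editing fraction per site (1.00% to 94.9% in the list), printed here as percent. The settings of Bullseye, its control and minimum depth, and how both libraries became 1 list were not given in these sources.

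Members were matched by symbol to a RefSeq gene table (GRCm38.p6), and all 53 matched. Distances run along the site's strand to the ends of the gene span, and positions are 1-based. Counts, medians and quartiles were computed with Python 3.11.15 and pandas 2.3.3, and tested on simulated data. No test over samples was possible. Members, lists and alternatives were chosen with earlier results of these data known. Named were members with 2 or more sites, the 4 highest and 2 lowest sites of each family and sites outside a span; other members named were added after their values were seen. The letters around edited bases, snoRNA hosts, the stretches at the 5′ end and the limit of 10 kb on spans were also added then. The planned comparison of protein lengths was not run, and single values of a few genes are not reported here.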

Additional observations from a re-analysis of the deposited data

How the results depend on the processing

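Of 36 recomputed values, 30 were counted as unchanged, 5 moved further and 1 turned its direction. Unchanged means within 1.5 times the reported value or, for shares of sites near the 3′ end, within its exact 95% interval. That interval takes sites as independent, although some genes hold several. For the mitochondrial family it ran from 7.13% to 42.2%. A fall from 20.8% in the last 1 kb to 8.33% in the last 500 bases was thus counted as unchanged. Leaving out paralog symbols ending in l could not change the gene counts, because those genes had no site. With sites of 5% or more, 11 cytosolic genes had a site and the gene medians, mitochondrial minus cytosolic, differed by -1.71 points; that minimum removes 32 of 46 cytosolic and 11 of 26 mitochondrial sites. With sites of 2% or more the difference was 3.11 points. It was 2.82 points between means over genes, 2.89 over single sites and 4.75 with the highest site of each gene. The share of cytosolic sites near the 3′ end was 97.8% in the last 5 kb and 17.8% in the last 10% of the span, and that of mitochondrial sites was 58.3% in the last 5 kb; a span shorter than the window holds all its sites by construction. Leaving out sites outside the span or inside another gene, and keeping spans of at most 10 kb, were added after the data were seen; the differences were then 4.30 and 4.82 points, and without the sites outside a span or inside another gene 16 of the 18 mitochondrial genes kept a site. No library could be left out, because the list combines both. The depth behind each level is unknown, and high levels can rest on few reads.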
